A study of Mus musculus with 35 samples.

Results

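The 9 genes described here are known from muscle and the actin cytoskeleton: the actin cross-linkers Flna and Flnc, the transgelins Tagln and Tagln2, the smooth muscle actin Acta2, the calponin Cnn2, the myosin light chain Myl9, the tropomyosin Tpm1 and the small nuclear protein Mustn1. They were chosen by name, with earlier results of these data known, as contractile genes of the serum response factor (SRF) program. They are 9 of the 33292 genes in the expression table. Of these, 8 passed the filter on low values and were tested in at least 1 comparison, whereas Flnc did not pass in any.

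The libraries came from podocytes, the epithelial cells that cover the capillaries of the kidney glomerulus, of 35 mice aged 7 to 10 weeks. All mice carried one floxed Lmx1b allele, whose homeodomain exons are removed by Cre, and the tetO::Cre and mTmG transgenes with a podocyte-specific rtTA transgene, so that Cre is made in podocytes and marks them with GFP for sorting. The other Lmx1b allele was intact in the controls (Lmx1b+/lox, below +/lox, labelled as wild type) or carried a missense mutation in the LIM-A domain (Lmx1b H77L/lox, below H77L/lox) or the LIM-B domain (Lmx1b C118F/lox, below C118F/lox). Controls therefore kept 1 working allele after Cre, and knock-in podocytes kept only the mutant one. Every mouse, controls included, drank 2 mg/ml doxycycline for 7 days and was injected every other day with 0.3 μg/g of the proteasome inhibitor bortezomib (Btz) or with its solvent DMSO. There were 6 mice in each of the 6 groups of genotype and treatment except for C118F/lox with bortezomib, which had 5, and each mouse was a library of its own.

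SRF is a transcription factor that binds a short DNA element called the CArG box. Its myocardin-related cofactors are held in the cytoplasm by monomeric actin and enter the nucleus when actin polymerises, so that many genes of the actin cytoskeleton are SRF targets. Podocytes hold their foot processes in shape with actin bundles, and filamins, calponins and tropomyosins are among the proteins that link or line these filaments. Flna, Tagln and Mustn1 were singled out by the study in these same libraries, so their direction here is not independent evidence.

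Levels are given in TPM, a share of all transcripts in a library that is corrected for gene length. Differences are log2 fold changes of TPM + 1 with their standard error (SE), fitted with limma over genes above 1 TPM in every mouse of at least 1 group compared. A gene was called, and is said to have risen or fallen, at a p under 0.05 after Benjamini-Hochberg adjustment over all genes of a comparison. In bulk libraries, fewer cells of a type and less RNA per cell cannot be told apart. Depth, estimated from the steps of the TPM values, had a median of 19155561 reads per mouse and a range from 5265749 to 24137873. The lowest was that of mouse 2 of the bortezomib-treated C118F/lox group.

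The sorted cells expressed podocyte genes at high levels. Synaptopodin (Synpo), an actin-associated protein of the foot processes, had a median of 2409 TPM in DMSO-treated +/lox mice, and of 631 and 500.9 TPM in H77L/lox and C118F/lox mice. Of 12 podocyte markers, 8 fell in each knock-in line under DMSO and 2 rose in H77L/lox mice. Among all genes tested, 22.4% fell and 22.4% rose in H77L/lox mice, and 16.6% fell and 13.7% rose in C118F/lox mice. Synpo fell by 2.06 and 2.44 on the log2 scale.

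In 3 libraries, markers of another cell type summed to more than 2 times the next library. In mouse 1 of the DMSO-treated C118F/lox group, smooth muscle, mesangial and pericyte markers reached 2921 TPM, 2165.6 TPM of them renin (Ren1), against 1110 TPM in the next library, and endothelial markers reached 183 against 76.8 TPM. In mouse 1 of the DMSO-treated +/lox group, fibroblast markers reached 969.8 against 275 TPM and leukocyte markers 429 against 76.7 TPM. Mouse 2 of that group had 1418 TPM of tubule markers against 475 TPM in the next library. The comparisons that include these libraries were also run without them, for the 9 genes and for the gene lists, and changed calls of the 9 genes and of list genes named below are given with them. Among the podocyte markers the fall of Wt1 in C118F/lox mice was no longer called, which left 7 of 12.

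The promoters of the genes were searched for the element that SRF binds. In the 300 bases before the annotated start (GRCm39), a CArG box was found in Tagln and Cnn2, that is in 2 of the 9 genes, against 369 of 21636 protein-coding genes of the table (1.71%). Flnc and Myl9 each had a CArG-like box, with 1 G or C in the A/T core, which 8.94% of all windows held. The pattern of either box reads the same on both strands. The stretches are shown because they mark the members with the SRF element close to the start, 5′ to 3′ on the strand of the gene, with the box in capitals.
Tagln, chr9:45847429-45847498, minus strand: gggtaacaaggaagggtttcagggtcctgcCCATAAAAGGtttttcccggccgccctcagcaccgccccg
Cnn2, chr10:79824348-79824410, plus strand: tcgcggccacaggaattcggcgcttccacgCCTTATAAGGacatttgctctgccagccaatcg
Myl9 (CArG-like), chr2:156616972-156617041, plus strand: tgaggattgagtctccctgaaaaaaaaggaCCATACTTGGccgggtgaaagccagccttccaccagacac
Flnc (CArG-like), chr6:29432959-29433028, plus strand: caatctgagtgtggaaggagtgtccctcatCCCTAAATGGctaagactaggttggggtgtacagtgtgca
Counted back from the annotated start, the boxes lie at -64 to -55 in Tagln, -33 to -24 in Cnn2, -82 to -73 in Myl9 and -83 to -74 in Flnc. Neither pattern was found in the windows of Flna, Tagln2, Acta2, Tpm1 and Mustn1, which says only that these letters are not in this stretch. The start used is that of the canonical transcript. For Flna the window, chrX:73290163-73290462, therefore lies inside the gene span given below, and the window of Tpm1 overlaps the end of its span. The matches are a description of the sequence, not a measurement of binding. Because the 9 genes were chosen as genes of the SRF program, their share with a box is not independent of that choice.

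In GRCm39 the genes lie on 8 chromosomes, with Tagln and Tpm1 both on chromosome 9. Flna is at chrX:73265347-73293456 (minus strand), Flnc at chr6:29433072-29461887 (plus), Tagln at chr9:45840909-45847404 (minus) and Tagln2 at chr1:172327426-172334947 (plus). Acta2 is at chr19:34217737-34232990 (minus), Cnn2 at chr10:79824410-79831896 (plus) and Myl9 at chr2:156617084-156623579 (plus). Tpm1 is at chr9:66929870-66956953 (minus) and Mustn1 at chr14:30601157-30603567 (plus). All 9 are annotated as protein-coding, and each value covers the gene as a whole, with no account of isoforms.

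The first comparison asks how contractile gene expression differs between podocytes with a mutant LIM domain and control podocytes. In both DMSO-treated knock-in lines, 7 of the 8 tested genes rose at an adjusted p under 0.05 (limma) and none fell. Of the 10964 genes tested in H77L/lox mice 22.4% were higher and 22.4% lower, and of 10899 in C118F/lox mice 13.7% were higher and 16.6% lower. Tagln, Mustn1, Flna and Myl9 also passed the stricter rule of an adjusted p under 0.001 and a log2 fold change above 2 in both lines, which 1.62% and 1.63% of genes passed upwards. The median log2 fold change of the 8 tested genes was 2.74 and 2.84, and that of all genes tested was -0.01 and -0.06. The medians are a description. Acta2 passed the filter only through the knock-in lines, with 3 of 6 controls above 1 TPM, and the other 7 were above 1 TPM in every control.

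**Figure D1:**
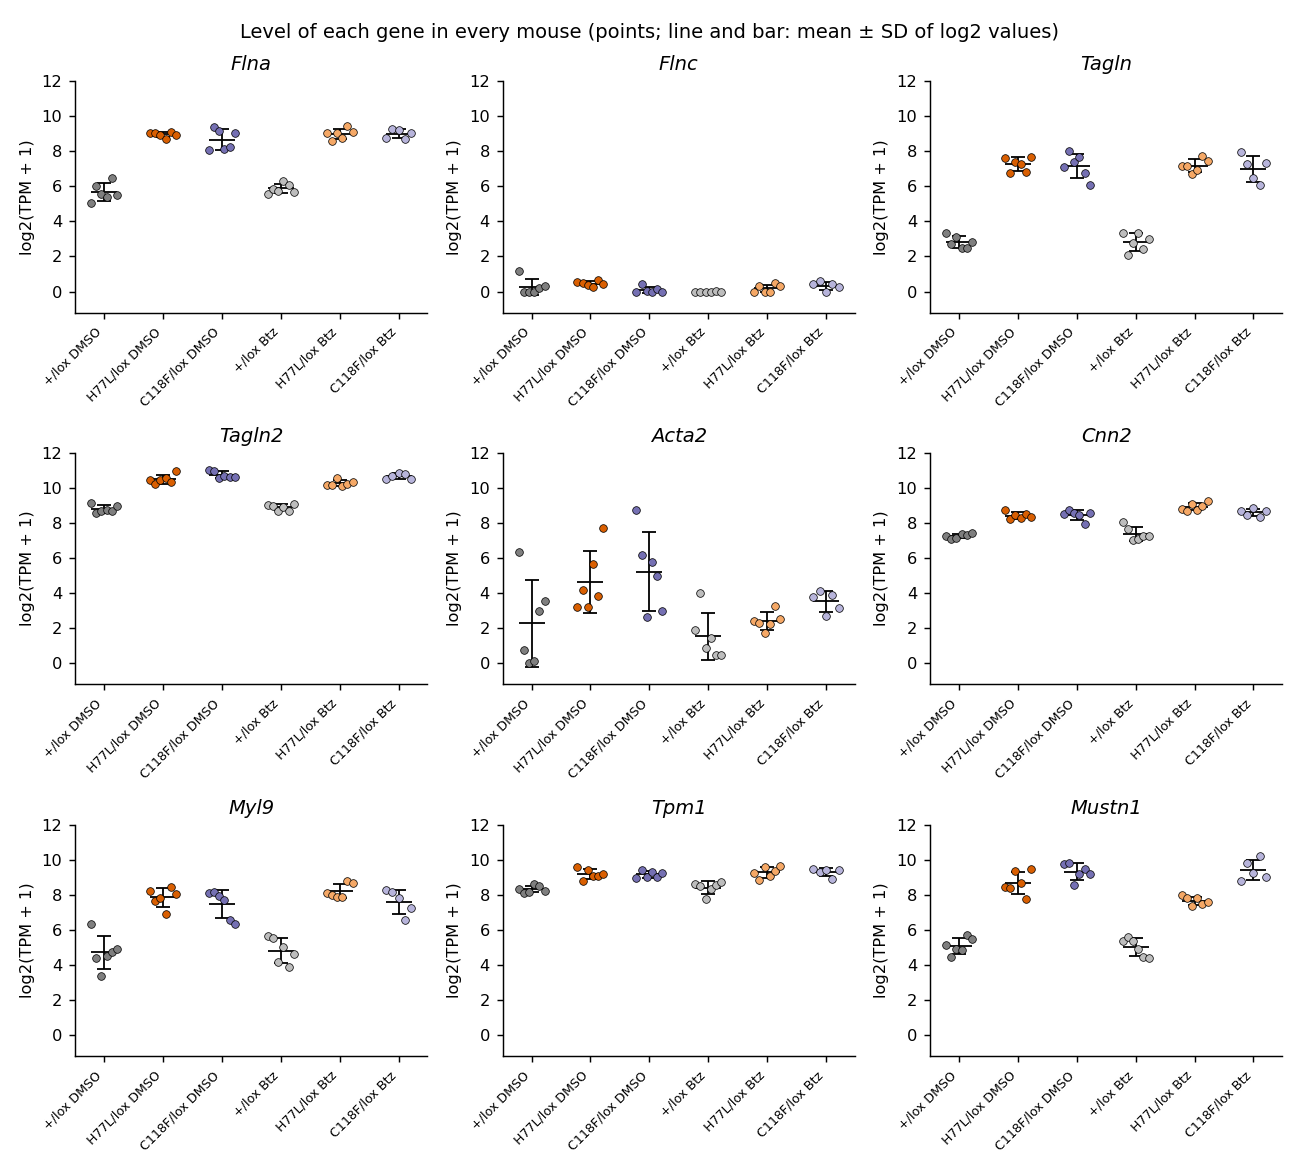
Level of each of the 9 genes as log2(TPM + 1) (y axis) in the 6 groups of genotype and treatment (x axis), with 1 point per mouse and lines for the mean ± SD of the log2 values, n = 6 per group and 5 for C118F/lox Btz. For Flna, Tagln, Tagln2, Myl9, Tpm1 and Mustn1 all 23 knock-in mice lie above all 12 control mice (2.18% of all genes that passed the filter), whereas Acta2 overlaps and Flnc stays at or below 1.21 TPM.

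Filamin A, which cross-links actin filaments and ties them to integrins, ranged from 32.5 to 86.7 TPM with a median of 45.5 TPM in DMSO-treated +/lox mice. It ranged from 408 to 547 TPM (median 510.3) in H77L/lox and from 269 to 669 TPM (median 408) in C118F/lox mice. Neither knock-in group overlapped the controls, and the C118F/lox mice split into 3 between 269 and 298 TPM and 3 between 517 and 669 TPM. Flna rose by a log2 fold change of 3.29 ± 0.18 (SE, limma, adjusted p = 1.03e-08) in H77L/lox and 2.99 ± 0.27 (adjusted p = 1.40e-06) in C118F/lox mice. The control mice of the same treatment served in both comparisons.

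Filamin C, the form found mainly in striated muscle, was close to the limit of detection. Its highest value was 1.21 TPM, in mouse 1 of the DMSO-treated +/lox group, and it was listed at 0 in 3 of 6 mice of that group. In DMSO-treated H77L/lox mice it ranged from 0.18 to 0.57 TPM, on 11 to 30 recovered reads. In C118F/lox mice it reached 0.36 TPM and was listed at 0 in 3 of 6. The groups overlapped, and Flnc was not tested because no group had more than 1 TPM in every mouse.

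Transgelin, an actin-binding protein abundant in smooth muscle, had the largest log2 fold change of the 9 genes in both DMSO comparisons. It ranged from 4.50 to 9.28 TPM (median 5.86) in +/lox, from 107 to 206 TPM (median 159) in H77L/lox and from 65.7 to 254 TPM (median 149.8) in C118F/lox mice. The lowest knock-in mouse was thus several times the highest control, and in the ranking of all genes by log2 fold change Tagln came 10th in H77L/lox and 13th in C118F/lox mice. The log2 fold change was 4.43 ± 0.19 (adjusted p = 7.05e-10) and 4.32 ± 0.27 (adjusted p = 5.34e-08). Tagln overlaps Pcsk7 on the opposite strand, which had a mean of 19.99 TPM over all mice and a highest value of 28.2 TPM. Reads of the 2 genes cannot be told apart where they overlap, since the counting is not stated to use strand.

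Transgelin 2, the widely expressed paralog, was already abundant in control podocytes. It ranged from 381 to 567 TPM (median 423) in +/lox, from 1178 to 1970.1 TPM (median 1399.95) in H77L/lox and from 1496 to 2088 TPM (median 1632) in C118F/lox mice. No knock-in mouse overlapped the controls. Tagln2 rose by a log2 fold change of 1.69 ± 0.13 (adjusted p = 1.85e-07) and 1.95 ± 0.12 (adjusted p = 5.34e-08), just below the stricter limit in C118F/lox mice.

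Myl9, the regulatory light chain of smooth muscle and non-muscle myosin, ranged from 9.52 to 78.2 TPM (median 23.8) in +/lox mice. It ranged from 120.2 to 349 TPM (median 246) in H77L/lox and from 78.9 to 289 TPM (median 226) in C118F/lox mice. The groups did not overlap, although the margin was narrow: the control at 78.2 TPM is mouse 1, the library with high fibroblast and leukocyte markers, and the next control had 29.4 TPM. The log2 fold change was 3.14 ± 0.37 (adjusted p = 1.36e-05) and 2.76 ± 0.43 (adjusted p = 0.000228), and 3.46 and 2.94 without the 3 libraries high in other cell types.

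Mustn1, a small nuclear protein first described in developing and regenerating muscle and bone, ranged from 20.8 to 51.3 TPM (median 32.1) in +/lox mice. It ranged from 219 to 715 TPM (median 383) in H77L/lox and from 372 to 896 TPM (median 645) in C118F/lox mice. All knock-in mice were above all controls. Mustn1 rose by a log2 fold change of 3.60 ± 0.27 (adjusted p = 1.71e-07) and 4.23 ± 0.23 (adjusted p = 1.64e-08).

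Cnn2 and Tpm1 rose less and from a higher base. Cnn2, a calponin that binds actin and dampens myosin activity, ranged from 136 to 169 TPM (median 154) in +/lox, from 298 to 422 TPM (median 335) in H77L/lox and from 246 to 419 TPM (median 367) in C118F/lox mice. Its log2 fold change was 1.16 ± 0.09 (adjusted p = 3.16e-07) and 1.19 ± 0.12 (adjusted p = 4.53e-06), with no overlap of the groups. Tpm1, a tropomyosin that lies along actin filaments and is counted here over all isoforms, ranged from 274 to 384 TPM (median 313) in controls. It ranged from 444 to 775 TPM (median 563) in H77L/lox and from 487 to 685 TPM (median 566) in C118F/lox mice, again without overlap. Its log2 fold change was 0.87 ± 0.13 (adjusted p = 0.000106) and 0.83 ± 0.11 (adjusted p = 7.86e-05), the smallest of the 7 rises in both lines. In all, 7 of the 8 tested genes did not overlap between each knock-in line and the controls, as did 11% and 6.48% of all genes tested in the upward direction in H77L/lox and C118F/lox mice.

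Acta2, the smooth muscle actin whose rise marks myofibroblasts, was low and variable. In mice 1 to 6 of the DMSO-treated +/lox group it was at 80.1, 0.67, 0, 0.08, 6.92 and 10.6 TPM. In H77L/lox mice it was at 8.11, 17.3, 8.08, 48.7, 13.3 and 210.1 TPM, and in C118F/lox mice at 422, 72.6, 5.22, 52.8, 30.4 and 6.78 TPM. The groups overlapped: mouse 1 of the controls was above 5 of 6 mice in each knock-in group, and mouse 6 of the controls above 2 of 6 in each. The log2 fold change was 2.34 ± 1.03 (adjusted p = 0.0772) and 2.92 ± 1.13 (adjusted p = 0.0645), neither past the threshold. Without the 3 libraries high in other cell types it was 2.97 (adjusted p = 0.0236) and 2.84 (adjusted p = 0.0358), and without mouse 1 of the controls alone 3.15 (adjusted p = 0.00906) and 3.73 (adjusted p = 0.0133). Mouse 6 of H77L/lox, at 210.1 TPM, was not among the libraries left out. The actins are related in sequence, and whether a share of the Acta2 reads was assigned to or from Actb, Actg1 or Actg2 was not tested.

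**Figure D2:**
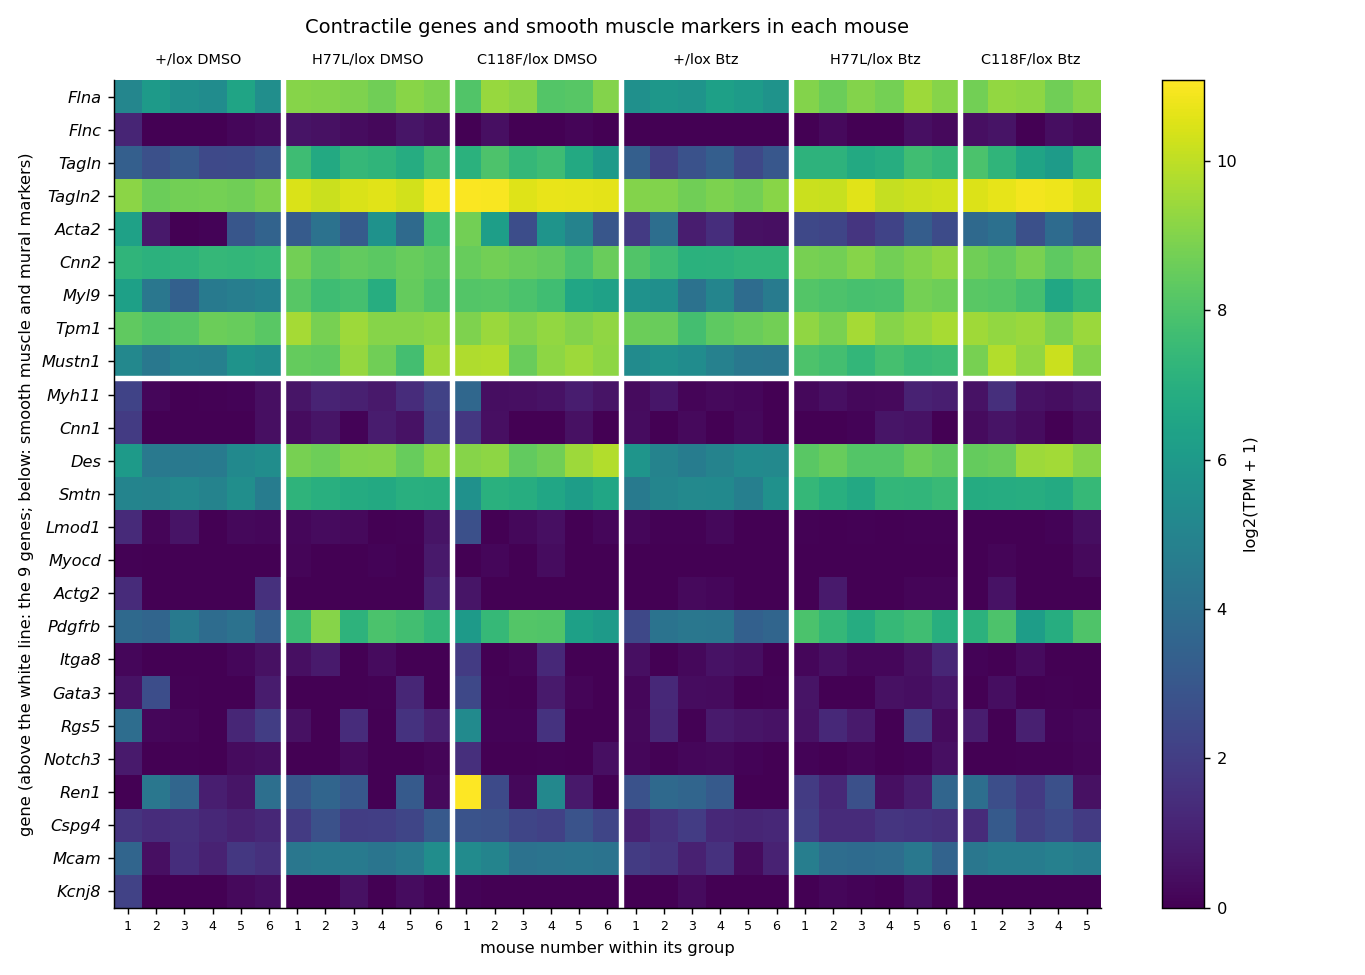
Level as log2(TPM + 1) (colour) of the 9 genes (rows above the white line) and of 16 smooth muscle, mesangial and pericyte markers (rows below it) in each mouse (columns, numbered within the 6 groups). Des, Smtn, Pdgfrb and Mcam are higher in the knock-in groups, Myh11, Cnn1, Lmod1, Myocd and Actg2 stay dark in nearly all mice, and mouse 1 of C118F/lox DMSO stands out for Acta2 (422 TPM) and Ren1 (2165.6 TPM).

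The markers of smooth muscle, mesangial cells and pericytes moved with the contractile genes in part. Their 16 genes summed to a median of 98.0 TPM in DMSO-treated +/lox mice and to 852 and 904 TPM in H77L/lox and C118F/lox mice, with desmin (Des) the most abundant by its mean in each of the 3 groups. Only 5 of the 16 passed the filter, and all 5 rose in both lines, beside 22.4% and 13.7% of all genes tested: Des, Smtn, Pdgfrb, Cspg4 and Mcam. Of these, Cspg4 and Mcam passed only through the knock-in lines, where they are high, so that their rise was selected for. Smtn, also a marker of differentiated smooth muscle, had a median of 30.2 TPM in DMSO-treated +/lox and of 123 and 92.2 TPM in H77L/lox and C118F/lox mice. Other markers of differentiated smooth muscle were low: the median over DMSO-treated H77L/lox mice was 1.05 TPM for Myh11, 0.51 TPM for Cnn1, 0.18 TPM for Lmod1, 0.05 TPM for Myocd and 0 for Actg2. In C118F/lox mice the corresponding medians were 0.47, 0.18, 0.17, 0 and 0 TPM, and in +/lox mice 0.099, 0, 0.15, 0 and 0 TPM. The medians of Myh11 and Cnn1 were thus also above those of the controls, but these genes were too low to be tested. Itga8, Gata3, Rgs5, Notch3, Ren1 and Kcnj8, the remaining markers of the list, did not pass the filter either. Itga8, Notch3 and Rgs5 were highest in mouse 1 of the DMSO-treated C118F/lox group, at 2.84, 1.81 and 39.1 TPM. Kcnj8 and Gata3 were highest in DMSO-treated controls, at 3.54 TPM in mouse 1 and 5.18 TPM in mouse 2. The 2 libraries with the highest Acta2, mouse 1 of C118F/lox and mouse 6 of H77L/lox under DMSO, had 11.9 and 3.51 TPM of Myh11. In the next highest, mouse 1 of the DMSO-treated +/lox group, Myh11 was at 3.69 TPM, Cnn1 at 2.81 TPM and Rgs5 at 14.7 TPM. The part of smooth muscle, mesangial cells and pericytes in the Acta2 levels was not tested. The other 7 genes called in these comparisons kept their calls without the 3 libraries.

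**Figure D3:**
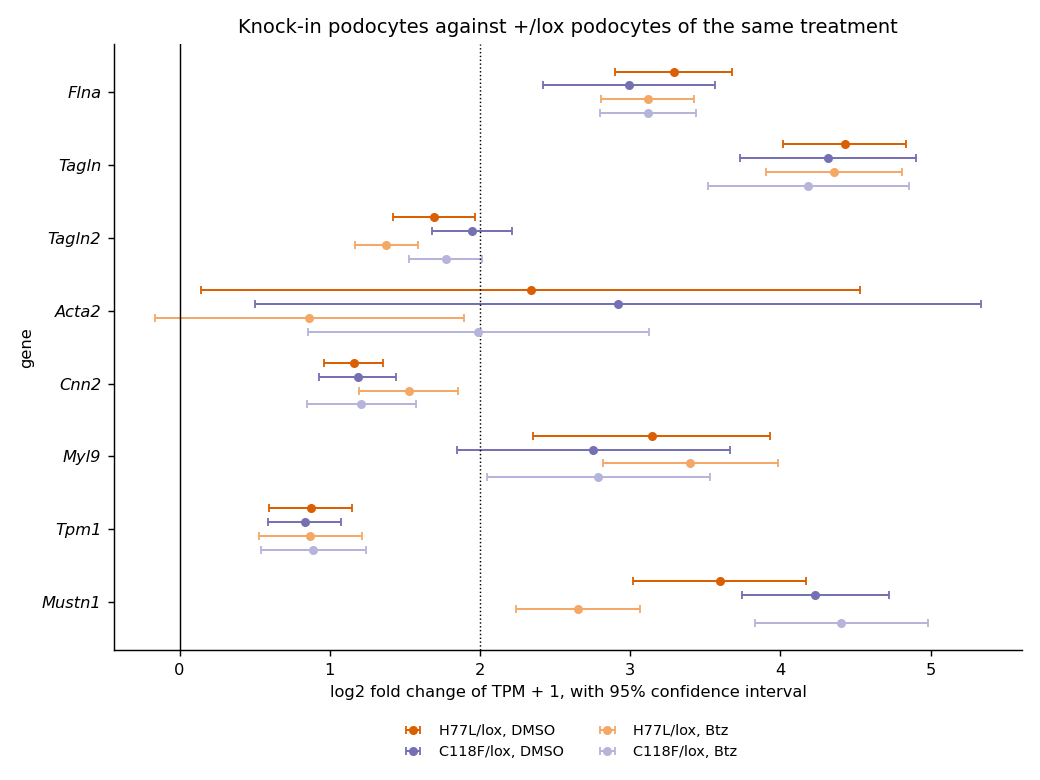
Log2 fold change of TPM + 1 (x axis) with its 95% confidence interval for the 8 genes tested (y axis) in the 4 comparisons between a knock-in line and +/lox mice of the same treatment. The solid line marks no change and the dotted line a log2 fold change of 2; Tagln, Mustn1, Flna and Myl9 lie above 2 in all 4 comparisons, and the intervals of Acta2 are the widest.

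Under bortezomib, the contractile genes again differed between knock-in and control podocytes. In H77L/lox mice 7 of the 8 tested genes rose, against 12.5% higher and 11% lower of the 10805 genes tested, and Flna, Tagln, Myl9 and Mustn1 passed the stricter rule, as did 0.925% of all genes upwards. In C118F/lox mice all 8 rose, Acta2 having passed the filter only through that line, against 15.1% higher and 12.4% lower of 10916 genes, and the same 4 passed the stricter rule, against 1.52% of genes. For 7 of the 8 genes, all but Acta2, the groups did not overlap in either line, as for 6.8% and 9.01% of all genes upwards. The 2 comparisons share their control mice.

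Tagln was at 3.27 to 9.17 TPM (median 6.40) in bortezomib-treated +/lox mice and at 105 to 207 TPM (median 142) in H77L/lox mice. The 5 C118F/lox mice had 244, 153, 87.2, 66.2 and 159 TPM. The log2 fold change was 4.36 ± 0.21 (adjusted p = 8.77e-10) and 4.19 ± 0.31 (adjusted p = 2.74e-07). Flna, at 46.0 to 78.8 TPM in controls, was at 381 to 692 TPM in H77L/lox mice and at 422, 620, 587, 414 and 533 TPM in C118F/lox mice. Its log2 fold change was 3.12 in both lines, with SEs of 0.14 (adjusted p = 4.55e-10) and 0.15 (adjusted p = 4.75e-09). These changes lie near those under DMSO, and no difference of the bortezomib responses was called for either gene, as given below.

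Myl9 rose by a log2 fold change of 3.40 ± 0.27 in H77L/lox and 2.79 ± 0.35 in C118F/lox mice (adjusted p = 1.98e-07 and 3.58e-05). Tagln2 rose by 1.38 ± 0.10 and 1.77 ± 0.11 (adjusted p = 6.29e-08 and 6.88e-08). For Cnn2 the log2 fold changes were 1.53 ± 0.15 and 1.21 ± 0.17 (adjusted p = 2.40e-06 and 0.000103), and for Tpm1 0.87 ± 0.16 and 0.89 ± 0.16 (adjusted p = 0.000855 and 0.000938). All 4 of these genes were thus higher in both lines, with Tpm1 again the smallest rise of the 4 in each.

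Acta2 had no value above 16.2 TPM under bortezomib. It was at 2.7, 15.2, 0.86, 1.77, 0.40 and 0.39 TPM in mice 1 to 6 of +/lox, between 2.31 and 8.52 TPM (median 4.10) in H77L/lox, and at 13.0, 16.2, 5.61, 13.8 and 7.74 TPM in C118F/lox mice. The groups overlapped in both comparisons. The rise was called in C118F/lox mice, with a log2 fold change of 1.99 ± 0.53 (adjusted p = 0.0120), and not in H77L/lox mice, with 0.87 ± 0.48 (adjusted p = 0.222). The former call was lost in a fit over all 35 mice (adjusted p = 0.113), and the latter value became 1.36 (adjusted p = 0.00403) without mouse 2 of the controls, the one at 15.2 TPM.

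Mustn1 differed most between the 2 knock-in lines under bortezomib. It was at 251, 220.3, 160.3, 222, 180.2 and 193 TPM in mice 1 to 6 of H77L/lox and at 445, 883, 613, 1174 and 525.6 TPM in C118F/lox mice, against 19.99 to 47.4 TPM in +/lox mice. The 2 lines did not overlap, which 1.22% of all genes tested did upwards. The difference between the lines was 1.75 ± 0.21 on the log2 scale (95% interval 1.31 to 2.20, adjusted p = 0.0016), and it was called without each mouse in turn. Mustn1 was the only one of the 8 genes called in this comparison, in which 0.713% of 10803 genes were higher and 0.259% lower in C118F/lox mice.

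The remaining differences between the lines under bortezomib did not pass the test. They were 0.40 (95% interval 0.17 to 0.62, adjusted p = 0.102) for Tagln2, 1.12 (0.52 to 1.73, adjusted p = 0.0770) for Acta2, -0.32 (-0.56 to -0.07, adjusted p = 0.224) for Cnn2 and -0.61 (-1.18 to -0.04, adjusted p = 0.313) for Myl9. The difference was 0.0022 (-0.31 to 0.32) for Flna, -0.17 (-0.75 to 0.42) for Tagln and 0.02 (-0.30 to 0.34) for Tpm1. Acta2 passed without mouse 5 of H77L/lox (1.29, adjusted p = 0.0413) or without mouse 3 of C118F/lox (1.33, adjusted p = 0.0486).

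Under DMSO no gene of the table differed between the 2 lines at an adjusted p under 0.05 (limma on TPM, limma voom on recovered reads: 0 of 10809 and 0 of 10805), and 416 passed an unadjusted p under 0.05. Mustn1 was 0.64 higher in C118F/lox mice (95% interval 0.04 to 1.24, adjusted p = 0.931), with 2 of 6 mice above every H77L/lox mouse. The intervals of the other 7 genes include 0. The widest was that of Acta2, from -1.52 to 2.68 around a difference of 0.58.

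**Figure D4:**
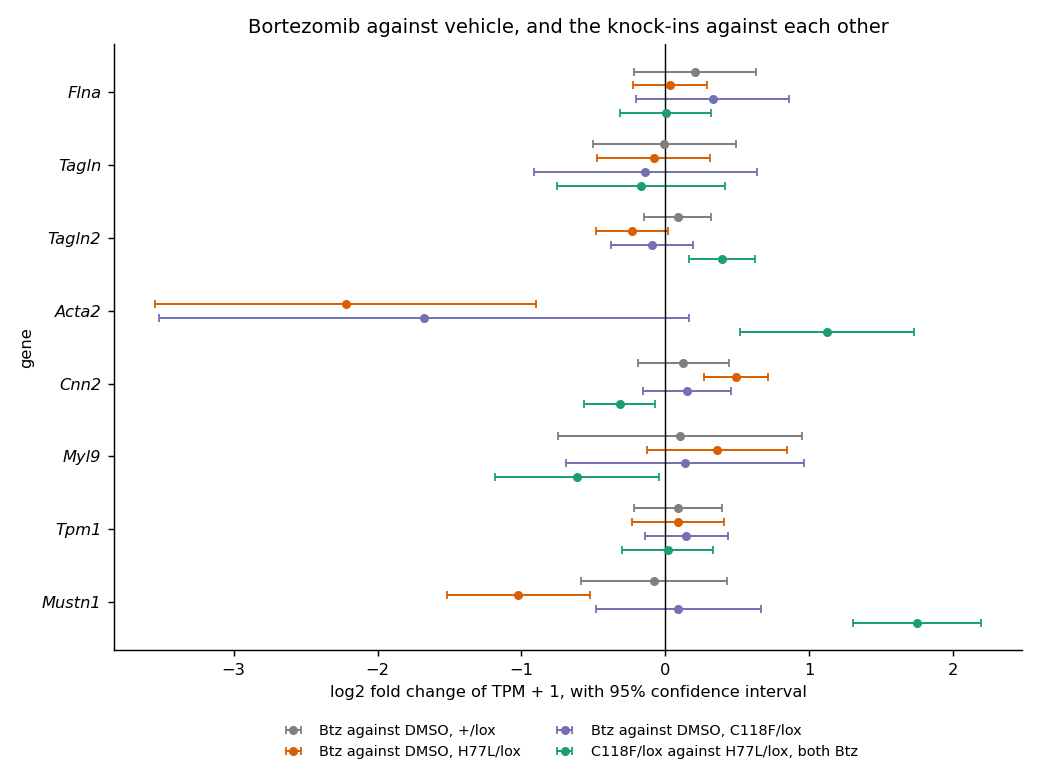
Log2 fold change of TPM + 1 (x axis) with its 95% confidence interval for the tested genes (y axis), for bortezomib against DMSO in each genotype and for C118F/lox against H77L/lox mice under bortezomib. For bortezomib against DMSO the intervals of Cnn2 (above 0), Mustn1 and Acta2 (below 0) in H77L/lox exclude 0 and the others include it. Between the lines those of Mustn1 (1.75 higher in C118F/lox), Acta2, Tagln2, Cnn2 and Myl9 exclude 0, of which only Mustn1 passed the test. Acta2 was not tested in +/lox, where it did not pass the filter.

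The next question is whether bortezomib changed contractile gene expression within a genotype. In +/lox mice none of 7 tested genes was called, as was no gene of the 10659 tested (limma on TPM and limma voom on recovered reads), while 923 passed an unadjusted p under 0.05. The log2 fold changes lay between -0.08 for Mustn1 and 0.21 for Flna. In C118F/lox mice none of 8 was called, nor was any of the 10814 genes by either tool, with 634 at an unadjusted p under 0.05. There the change of Flna was 0.33 (95% interval -0.20 to 0.86), that of Acta2 -1.68 (-3.52 to 0.17) and that of Mustn1 0.09 (-0.48 to 0.67).

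In H77L/lox mice Cnn2 rose and Mustn1 fell with bortezomib, against 0.416% of 10813 genes higher and 0.74% lower. Cnn2 went from 298 to 422 TPM (median 335) under DMSO to 418 to 599 TPM (median 473) under bortezomib, with 5 of 6 treated mice above every DMSO mouse. Its log2 fold change was 0.49 ± 0.10 (adjusted p = 0.0387). Mustn1 went from 219 to 715 TPM (median 383) to 160.3 to 251 TPM (median 207), with 3 of 6 treated mice below every DMSO mouse, and its log2 fold change was -1.02 ± 0.23 (adjusted p = 0.0479). Both adjusted p-values lie close to the threshold: leaving out 1 mouse at a time lost the call of Cnn2 in 8 of 12 fits and that of Mustn1 in 10 of 12, and neither was called without the filter on low values.

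Acta2 had the largest change in this comparison among the 8 genes, with 5 of 6 treated mice below every DMSO mouse, but it was not called. For Acta2 the log2 fold change was -2.22 ± 0.62 (adjusted p = 0.0780). For Flna, Tagln, Tagln2, Myl9 and Tpm1 the changes were 0.03, -0.08, -0.23, 0.36 and 0.09, with 95% intervals that include 0.

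The responses of the genotypes to bortezomib were also compared directly, by the interaction of genotype and treatment. No gene of the table was called in any of the 3 comparisons, by limma on TPM or by limma voom on recovered reads. For H77L/lox against +/lox mice 1 gene outside the 9 was called with median-ratio scaling, and from 0 to 275 genes without single mice, the 275 without mouse 1 of the bortezomib-treated +/lox group and 199 without mouse 5 of the DMSO-treated one, but none of the 9 in any of these fits. At an unadjusted p under 0.05 there were 840 genes for H77L/lox against C118F/lox, 2037 for H77L/lox against +/lox and 560 for C118F/lox against +/lox mice. For Mustn1 the response of H77L/lox mice was 1.11 lower on the log2 scale than that of C118F/lox mice (difference -1.11, 95% interval -1.90 to -0.33, unadjusted p = 0.00737, adjusted p = 0.650). Against +/lox mice the difference was -0.94 (95% interval -1.68 to -0.20, adjusted p = 0.166). For Cnn2 the response of H77L/lox mice was 0.34 above that of C118F/lox mice (95% interval -0.02 to 0.71) and 0.37 above that of +/lox mice (-0.02 to 0.76). For Mustn1 the response of C118F/lox mice was 0.17 above that of +/lox mice (-0.61 to 0.96). The calls in H77L/lox mice are therefore not shown to differ from the other genotypes.

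Set over both treatments, all 23 knock-in mice were above all 12 control mice for Flna, Tagln, Tagln2, Myl9, Tpm1 and Mustn1, as for 2.18% of the 11306 genes that all mice of 1 group or more had above 1 TPM. The margin was wide for Tagln, with the lowest knock-in mouse at 65.7 TPM and the highest control at 9.28 TPM, and narrow for Myl9 (78.9 and 78.2 TPM) and Tpm1 (444 and 425 TPM). For Cnn2 22 of the 23 were above all controls, and for Acta2 2. Tagln2 had the highest median TPM of the 9 genes in every group, Flnc the lowest and Acta2 the second lowest. By their medians in DMSO-treated +/lox mice, Tagln2, Tpm1 and Cnn2 stood above 96.8%, 95.4% and 89.5% of the 11689 genes with a median above 1 TPM, whereas Tagln stood above 24.3%. In DMSO-treated H77L/lox mice Tagln stood above 90.3%, Myl9 above 94.1% and Flna above 97.6% of 11598 genes. The TPM of the 9 genes together had a median of 1083 in DMSO-treated +/lox mice and of 3760.4 and 3877 in H77L/lox and C118F/lox mice. Under bortezomib the medians were 1151, 3623 and 4338 TPM.

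Other genes of the actin and SRF system were counted by lists, which were chosen with earlier results of these data known. Of all genes tested under DMSO, 22.4% were higher and 22.4% lower in H77L/lox mice, and 13.7% higher and 16.6% lower in C118F/lox mice. Among the actins, Actg1 rose in both lines under DMSO (log2 fold changes 0.59 and 0.51), Actb had changes of 0.41 and 0.34 with adjusted p of 0.0819 and 0.251, and 3 of 5 actins were too low to test. Of 8 tested paralogs of the 9 genes, 4 rose in H77L/lox and 5 rose and 1 fell in C118F/lox mice, 1 of the rises in each line being of a gene that passed only through that line. The tropomyosins Tpm2 and Tpm4 rose by 1.71 and 1.96 and by 0.47 in each line. The calponin Cnn3 fell by 0.44 in C118F/lox mice and had a change of -0.30 (adjusted p = 0.125) in H77L/lox mice. The median change of the paralogs was 0.40 and 0.45, below that of the 8 genes in both lines. Without the 3 libraries high in other cell types the rise of Tpm4 in C118F/lox mice was no longer called (log2 fold change 0.32, adjusted p = 0.0805), and 3 paralogs rose there.

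**Figure D5:**
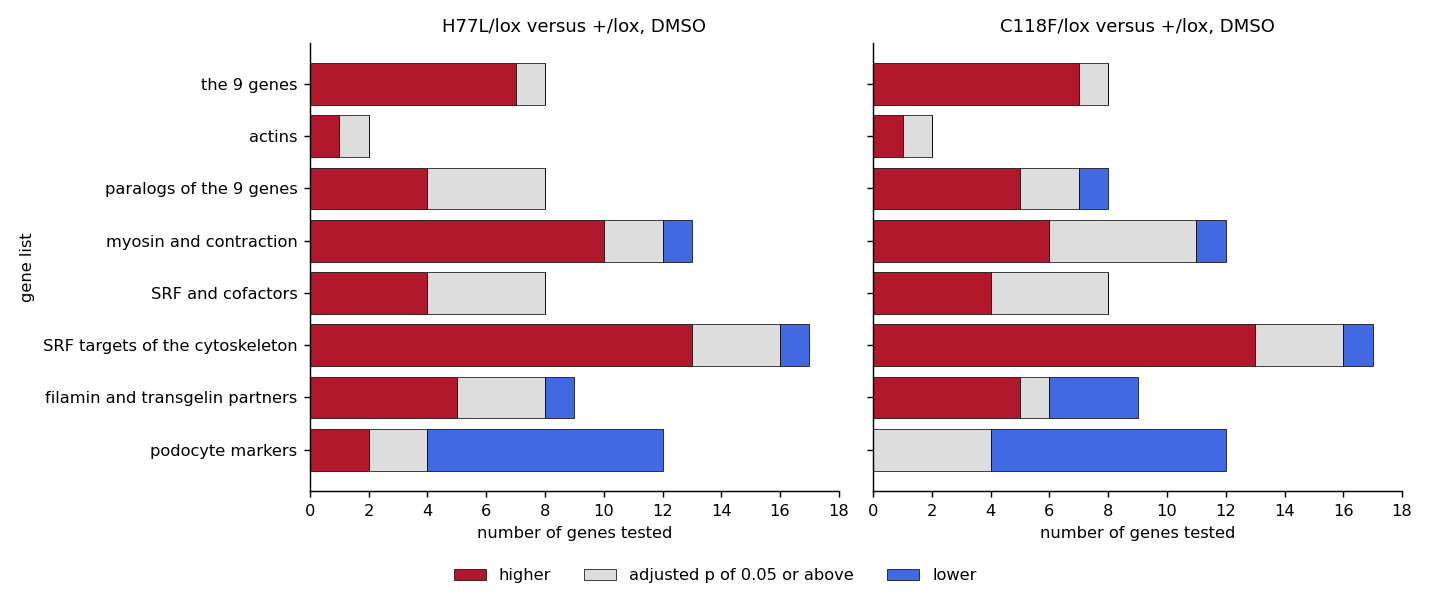
Number of tested genes (x axis) that were higher, not called or lower at an adjusted p under 0.05 in each gene list (y axis), for DMSO-treated H77L/lox (left) and C118F/lox (right) against +/lox mice. Among SRF targets of the cytoskeleton 13 of 17 were higher in each line, and of the podocyte markers 8 of 12 were lower in each. Over all genes tested, 22.4% and 13.7% were higher and 22.4% and 16.6% lower in H77L/lox and C118F/lox mice.

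Of the genes of myosin and contraction, 10 of 13 rose and 1 fell in H77L/lox and 6 of 12 rose and 1 fell in C118F/lox mice (median log2 fold changes 1.19 and 0.84). The largest rises were those of the intermediate filament desmin (Des, 3.81 and 4.06) and of the non-muscle myosin heavy chain Myh10 (2.32 and 1.61), which passed the filter only through the knock-in lines as 1 other gene that rose did, and the myosin light chain kinase gene Mylk3 fell by 1.70 and 2.46. Of the other SRF targets of the cytoskeleton, 13 of 17 rose and 1 fell in each line (medians 1.20 and 1.21), beside 22.4% and 13.7% of all genes higher. The largest rises were those of the LIM protein Csrp1 (2.64 and 3.09) and the PDZ-LIM protein Pdlim7 (1.63 and 1.86). Csrp2, a close relative of Csrp1, fell by 1.25 and 1.15. Among the partners of filamin and transgelin, the integrin subunit Itga5 rose by 2.51 and 2.86 and the filamin-binding LIM protein Fblim1, which passed only through the knock-in lines, by 2.20 and 2.51, and the GTPase gene Rala fell by 0.48 and 0.47. Of 9 tested partners, 5 rose and 1 fell in H77L/lox, and 5 rose and 3 fell in C118F/lox mice. Without the 3 libraries, 9 genes of myosin and contraction rose in H77L/lox and 7 in C118F/lox mice. The SRF targets of the cytoskeleton that rose were then 14 and 11. Ccn1, an SRF target named below, was then called as a fall in H77L/lox mice (log2 fold change -0.84, adjusted p = 0.0147). Among the partners, the rise of Bag3 in C118F/lox mice was no longer called (log2 fold change 0.70, adjusted p = 0.0690).

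Among SRF and its cofactors, 4 of 8 tested genes rose in each line and none fell, 2 of the 4 (Elk3 and Fhl2) having passed the filter only through the knock-in lines. Srf itself was at 16.9 to 27.2 TPM in DMSO-treated +/lox mice, at 33.4 to 60.4 TPM in H77L/lox and at 20.4 to 71.9 TPM in C118F/lox mice, so that only the former line did not overlap the controls. Its log2 fold change was 0.94 ± 0.15 (adjusted p = 0.000219) and 0.90 ± 0.26 (adjusted p = 0.0182). The cofactor Mrtfb rose by 1.38 and 1.11, whereas Mrtfa had changes of 0.36 and 0.26 (adjusted p = 0.160 and 0.432). The ETS factor Elk3 and the LIM protein Fhl2, which also bind SRF, rose by 1.16 and 1.41 and by 1.6 and 2.00. Myocardin (Myocd), the cofactor of smooth and cardiac muscle, was at most 0.71 TPM in any mouse.

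Under bortezomib, 12 of 17 SRF targets of the cytoskeleton rose in H77L/lox mice, and 11 rose and 2 fell in C118F/lox mice, with medians of 0.69 and 0.83. Of all genes tested, 12.5% were higher and 11% lower in H77L/lox mice, and 15.1% higher and 12.4% lower in C118F/lox mice. Of the genes of myosin and contraction 8 of 12 and 8 of 13 rose and 1 fell in each line, 1 of the rises (Ppp1r14a, an inhibitor of myosin phosphatase) being of a gene that passed the filter only through the knock-in lines. Srf rose by 0.70 in H77L/lox mice (adjusted p = 0.0440) and had a change of 0.59 in C118F/lox mice (adjusted p = 0.148). Of the smooth muscle, mesangial and pericyte markers 4 of 5 tested rose in H77L/lox and 5 of 5 in C118F/lox mice, with Des and Smtn counted both here and among the genes of contraction. Mcam passed only through the knock-in lines. Podocyte markers fell in 8 of 12 cases in each line.

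Of the 81 tested genes of the lists outside the 9, 4 changed with bortezomib in H77L/lox mice (1 higher and 3 lower), beside 0.416% of all genes higher and 0.74% lower. The integrin gene Itga5 fell by 1.41, the focal adhesion gene vinculin (Vcl) by 0.53 and Des by 0.52, and the matricellular gene Ccn1 rose by 0.72 on the log2 scale (adjusted p = 0.0298, 0.0479, 0.0437 and 0.0184). No gene of the table was called in this comparison without the filter or without mouse 2, 4 or 6 of the bortezomib group, so these 4 calls were lost there. Between the lines under bortezomib, Itga5 and Csrp1 were 1.27 and 1.09 higher in C118F/lox mice (adjusted p = 0.0145 and 0.00116), as Mustn1 was, and the podocyte gene Synpo was lower by a log2 difference of -0.53 (adjusted p = 0.0468). No gene of these lists was called for bortezomib in the other genotypes or between the lines under DMSO, where the whole table held no call.

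Genes outside the 9 were ranked by the likeness of their pattern, as Pearson's r of log2(TPM + 1) over the 35 mice among 12114 genes. The closest to Flna was Arhgap1 (r = 0.974), to Tagln Tgm2 (0.963), to Tagln2 Des (0.974), to Mustn1 Itga7 (0.979), to Myl9 Ndn (0.933), to Cnn2 and Tpm1 both Cap2 (0.935 and 0.913) and to Acta2 Ramp1 (0.897). Tgm2, a transglutaminase, was at 12.7 to 25.6 TPM in DMSO-treated +/lox and at 191 to 229 TPM in H77L/lox mice, and the integrin subunit Itga7 was at 0 to 1.91 and at 28.7 to 72.5 TPM. The mice fall into control and knock-in groups and each point shares its library and depth, so these values mainly describe genes that separate the genotypes and are given without a test.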

How the data were processed

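Libraries were made from GFP-positive podocytes with the SMART-Seq mRNA LP kit. Per the study's methods and the submitters' processing notes, the authors trimmed reads with Trim Galore 0.6.7 and used STAR on GRCm39, Picard and featureCounts 1.6.3. The authors deposited TPM values, which were taken as they stand. Of the gene identifiers, 32776 were found in GENCODE vM39 and 516 were not.

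Values were tested as log2(TPM + 1) with limma 3.58.1 in R 4.3.3 (lmFit, then eBayes with a trend). A fit held only the mice of its own groups, and genes above 1 TPM in every mouse of at least 1 of them. The p-values were two-sided and adjusted by Benjamini and Hochberg over all genes tested. They set a difference between groups against the spread between mice, as moderated by eBayes. Fold changes on the log2(TPM + 1) scale understate those of low genes. Whole reads were recovered from the TPM steps for 99.97% of the 23943 genes above 0, to within 0.01 of a whole number, and served for depth and for limma voom. The fits were tested on simulated data. The 9 genes and the lists were chosen with earlier results of these data known. All 9 genes are described, and of the longer lists mainly the largest rises and falls called in both lines under DMSO. Some listed genes are not reported here by name. Promoters were read from GRCm39 at GENCODE canonical transcripts, and the CArG-like box was added after the CArG box had been searched. Alternatives were a pseudocount of 0.1, no filter, all 35 mice in 1 fit, median-ratio scaling, the mouse number as a covariate, leaving out each mouse and, chosen after the data were seen, limma voom and leaving out the 3 libraries high in other cell types.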

Additional observations from a re-analysis of the deposited data

Results flagged for a closer look

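A mouse was singled out where its gap to the nearest mouse of its group was large against the whole range of the group. Gap and range were taken as log2(TPM + 1), by Dixon's test at the 95% level over 54 groups of mice and genes. Chance singles out about 1 in 20 such groups, and 4 were found. Cnn2 was at 246.4 TPM in mouse 5 of the DMSO-treated C118F/lox group, with the nearest mouse at 346 TPM, and this mouse was still above every DMSO-treated +/lox mouse. The other 3 were values of Flnc: 1.206 TPM in mouse 1 of the DMSO-treated +/lox group, which also stood apart in fibroblast and leukocyte markers, 0.3572 TPM in mouse 2 of the DMSO-treated C118F/lox group, and 0.01872 TPM, or 1 read, in mouse 5 of the bortezomib-treated +/lox group, in which the other mice were listed at 0.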

How the results depend on the processing

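In the 4 comparisons between a knock-in line and +/lox mice, between 3 and 5 genes passed the stricter rule under every alternative run, and all but Acta2 of the genes called at an adjusted p under 0.05 kept that call. The 3 came from C118F/lox under DMSO without the filter, and 5 from C118F/lox with median-ratio scaling under DMSO or without single mice. Without the filter the lowly expressed Flnc was also tested, and 9 genes were called in C118F/lox under bortezomib. With all 35 mice in 1 fit Acta2 passed in both lines under DMSO (adjusted p = 0.0365 and 0.0104). In H77L/lox mice the count of 2 genes changed by bortezomib became 0 without the filter and with all 35 mice in 1 fit, 1 with median-ratio scaling and 1 with voom, and from 0 to 2 without single mice. Cnn2 then had an adjusted p of 0.112 and 0.0774, just above 0.05, and 0.0457, and Mustn1 of 0.136, 0.0599, 0.0481 and 0.0602. Between the lines under bortezomib the count of 1 gene was from 1 to 2 without single mice.

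Changes of direction occurred only in differences that did not pass the test, and their cause was not tested. Where the mouse number was a covariate, Mustn1 under bortezomib against DMSO was 0.066 in +/lox and -0.011 in C118F/lox mice, and between the lines under bortezomib Flna was -0.056, Tagln 0.15 and Tpm1 -0.011. Between those groups Flna was -0.021 with median-ratio scaling and -0.023 with voom, and Tpm1 -0.0041 and -0.0056. Without the 3 libraries high in other cell types, Acta2 between the lines under DMSO was -0.12. Leaving out single mice moved the bortezomib change of Mustn1 from -0.21 to 0.043 in +/lox and from -0.10 to 0.25 in C118F/lox mice, and those of Flna and Tagln in H77L/lox mice from -0.057 to 0.11 and from -0.18 to 0.012. It moved the difference between the lines from -0.12 to 1.20 for Acta2 under DMSO, and under bortezomib from -0.080 to 0.091 for Flna, from -0.40 to 0.067 for Tagln and from -0.071 to 0.12 for Tpm1. The response of Mustn1 in C118F/lox minus +/lox mice lay between -0.022 and 0.33.

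Over all genes, 4907 were called in H77L/lox under DMSO and 2873 with the covariate. For bortezomib in H77L/lox mice 125 were called, against 0 without the filter, 58 with all 35 mice, 54 with voom and 183 with the covariate, and between 0 and 270 without single mice, with 0 without mouse 2, 4 or 6 of the bortezomib group. In C118F/lox mice 0 were called, against 31 with all 35 mice. Between the lines under bortezomib 105 were called, against 13 without the filter, 30 with all 35 mice, 24 with the covariate and between 35 and 279 without single mice. The covariate also moved the median change of all genes in C118F/lox mice under DMSO from -0.06 to -0.10, and no other median passed 0.1. No paired analysis was possible because each mouse has a number of its own. Flnc had at most 59 recovered reads in any mouse, and Acta2 had from 0 to 915 in DMSO-treated +/lox mice. Depth as a limit for either gene was not tested.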

Other observations

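Parietal epithelial markers were also counted. They summed to a median of 215 TPM in DMSO-treated +/lox mice and to 304 and 298 TPM in H77L/lox and C118F/lox mice, with Alcam the most abundant, and 3 of 5 tested markers rose in each line, 1 of them (Cd44) having passed the filter only through the knock-in lines. Neither tested fibroblast marker was called in either line, with Col1a2 the most abundant. The only tested endothelial marker was not called in either line. The 10 tubule markers summed to a median of 60.4 TPM in DMSO-treated +/lox mice and to 12.2 and 13.8 TPM in the H77L/lox and C118F/lox lines. The median log2 fold change of those tested was -1.87 and -2.24, and none of 4 and of 3 fell at an adjusted p under 0.05, while 1 rose in H77L/lox mice, a gene that passed the filter only through that line. Of the leukocyte markers 1 of 2 tested rose in the former line, and 1 rose and 1 fell of 3 in the latter. Over all genes tested, 22.4% rose and 22.4% fell in H77L/lox mice, and 13.7% rose and 16.6% fell in C118F/lox mice.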
